A study of Mus musculus with 18 samples.

Results

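The 6 genes described here encode hormone receptors and hormone-sensing luminal proteins of the mammary gland: Esr1, Pgr, Prlr, Greb1, Cited1 and Tnfsf11. They were taken by symbol from the 55450 genes of the count file, in which each of these symbols occurs once. All 6 passed the low-count filter, which left 19186 genes for testing. Of the 18 samples, 15 were primary mammary tumors of genetically engineered mice and 3 were mammary glands without a tumor. The B1/P/Rbf tumors (n = 5) had the genotype Brca1fl/fl/Trp53fl/fl/TgK18GT121Tg/+, the B1/P tumors (n = 5) Brca1fl/fl/Trp53fl/fl and the P/Rbf tumors (n = 5) Trp53fl/fl/TgK18GT121Tg/+, and the glands (n = 3) were wild type. All mice were C57Bl/6 females, and the labels give no tumor ages. Recombination was started in adults by injecting an adenovirus that carries Cre behind a cytomegalovirus promoter through the nipple into the ducts, so the cell type that took up Cre was not set by a promoter. T121 is an N-terminal piece of the SV40 large T antigen that inhibits pRb, p107 and p130, and after recombination it is driven by the promoter of keratin 18, a keratin of luminal epithelium. Every sample was 1 library from 1 mouse, so the spread within a group is that between mice. By RT-qPCR in the same tumors, Brca1 RNA was only partly lost in B1/P/Rbf tumor 3.

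In the mouse mammary gland, estrogen and progesterone are sensed by a subset of luminal epithelial cells that carry the estrogen receptor alpha and the progesterone receptor. Estrogen acting on these cells raises the progesterone receptor, and progesterone in turn induces RANKL and Wnt4, secreted signals that reach neighbouring basal and alveolar progenitor cells. Prolactin binds its own receptor on luminal cells and signals through Jak2 to Stat5. The genes are ordered below from the steroid receptors through the prolactin receptor and the estrogen receptor's nuclear partners to the RANKL ligand. Levels are in CPM, the count of a gene as a share of its library, after scaling of the libraries by the trimmed mean of M values (TMM). Fold changes are on the log2 scale with their standard error (SE), from edgeR's quasi-likelihood fit of all 18 samples with Benjamini-Hochberg adjustment over the 19186 genes, and a gene was called at an adjusted p of 0.05 or less.

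Total counts lay between 27661173 and 37794889 per sample. The epithelial label of the tumors was checked on Epcam, Cdh1, Krt8, Krt18, Cldn4 and Cldn7, whose summed level was 2949 to 5588 CPM in B1/P/Rbf, 759 to 2324 CPM in B1/P and 4429 to 8609 CPM in P/Rbf tumors and 1494 to 1945 CPM in glands. The glands also held 5 adipocyte markers at a sum of 9178 to 13242 CPM and 3 skeletal muscle markers at 17544 to 34855 CPM, against at most 172 CPM of the adipocyte markers in any tumor. Muscle markers reached at most 6.83 CPM in the tumors other than B1/P tumor 5, which had 496 CPM. In bulk samples, fewer cells of a type and less RNA per cell cannot be told apart. Earlier work on these data inferred 2 sets of libraries that the labels do not name. The first holds every B1/P/Rbf tumor beside B1/P tumors 1 to 3, and the second the other samples. B1/P/Rbf and P/Rbf genotypes therefore cannot be told apart from these sets, and neither can B1/P/Rbf tumors and glands. A term for the sets is estimated from the B1/P tumors alone, the only genotype found in both.

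The sequence around the first start site of 4 of the genes is shown here as RefSeq gives it on GRCm38.p6. These are Esr1, its known targets Pgr and Greb1, and Tnfsf11, whose levels ran apart from those of the others. Each window holds 250 bases before a transcription start and 50 bases after it, 5′ to 3′ on the gene's strand, and capitals mark a match to a motif searched on both strands. The Esr1 window is chr10:4611739-4612038 on the plus strand, and its capitals mark a forkhead site (TGTTTGC, here on the reverse strand) at positions -151 to -145 from the start and an estrogen response element half-site (GGTCA) at 16 to 20. The Pgr window, chr9:8899583-8899882 on the plus strand, and the Tnfsf11 window, chr14:78307994-78308293 on the minus strand, held no match. The Greb1 window, chr12:16800837-16801136 on the minus strand, held 1 half-site on the reverse strand (TGACC) at -88 to -84.
Esr1: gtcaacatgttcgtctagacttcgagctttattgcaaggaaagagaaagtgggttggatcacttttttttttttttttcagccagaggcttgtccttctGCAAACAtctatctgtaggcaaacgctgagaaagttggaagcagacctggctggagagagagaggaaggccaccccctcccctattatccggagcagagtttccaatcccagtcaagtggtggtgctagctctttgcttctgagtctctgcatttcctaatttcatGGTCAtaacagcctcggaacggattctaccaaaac
Pgr: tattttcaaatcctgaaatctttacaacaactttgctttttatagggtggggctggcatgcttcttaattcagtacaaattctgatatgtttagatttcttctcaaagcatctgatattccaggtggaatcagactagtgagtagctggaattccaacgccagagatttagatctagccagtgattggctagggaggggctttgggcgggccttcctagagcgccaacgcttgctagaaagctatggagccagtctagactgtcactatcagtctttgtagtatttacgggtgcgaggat
Greb1: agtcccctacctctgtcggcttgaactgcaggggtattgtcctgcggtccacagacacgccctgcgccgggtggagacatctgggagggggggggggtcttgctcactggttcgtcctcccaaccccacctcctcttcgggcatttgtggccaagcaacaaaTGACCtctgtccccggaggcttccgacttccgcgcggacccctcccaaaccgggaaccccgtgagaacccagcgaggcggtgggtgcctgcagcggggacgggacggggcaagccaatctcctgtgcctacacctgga
Tnfsf11: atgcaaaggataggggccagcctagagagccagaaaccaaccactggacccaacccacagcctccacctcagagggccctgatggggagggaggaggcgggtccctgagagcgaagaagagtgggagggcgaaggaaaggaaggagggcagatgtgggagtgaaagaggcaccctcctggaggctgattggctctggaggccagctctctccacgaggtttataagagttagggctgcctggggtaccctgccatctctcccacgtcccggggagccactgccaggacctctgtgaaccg

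The 6 genes had 12 such windows in RefSeq. None held the full estrogen response element, which is the half-site followed after 3 bases by its reverse complement and therefore contains the half-site, and which occurred in 0.0700% of the 32851 windows of all genes. Half-sites stood in windows of Esr1, Greb1 (both of its windows) and Cited1 (the first and the third of its windows), and in 40.5% of all windows. A STAT5 element (TTCNNNGAA) was matched in the second window of Esr1 and of Prlr, at -188 to -180 and -110 to -102, against 8.30% of all windows. The second Prlr window also held the other forkhead site (TGTTTAC, 3.65% of all windows) at -215 to -209, while the one in Esr1 (TGTTTGC) occurred in 5.07%. An E2F site (TTTGGCGC, 0.514% of all windows) was matched once, in the third Cited1 window at -86 to -79, and the other E2F site searched (TTTCGCGC, 0.323%), the GATA site (AGATAA, 11.2%) and the progesterone and glucocorticoid element (0.475%) in none. The number of CG pairs ranged from 2 in the second Prlr window to 32 in the third Cited1 window, with a median of 7 over all windows. A match here describes letters in a window and does not show binding.

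**Figure D1:**
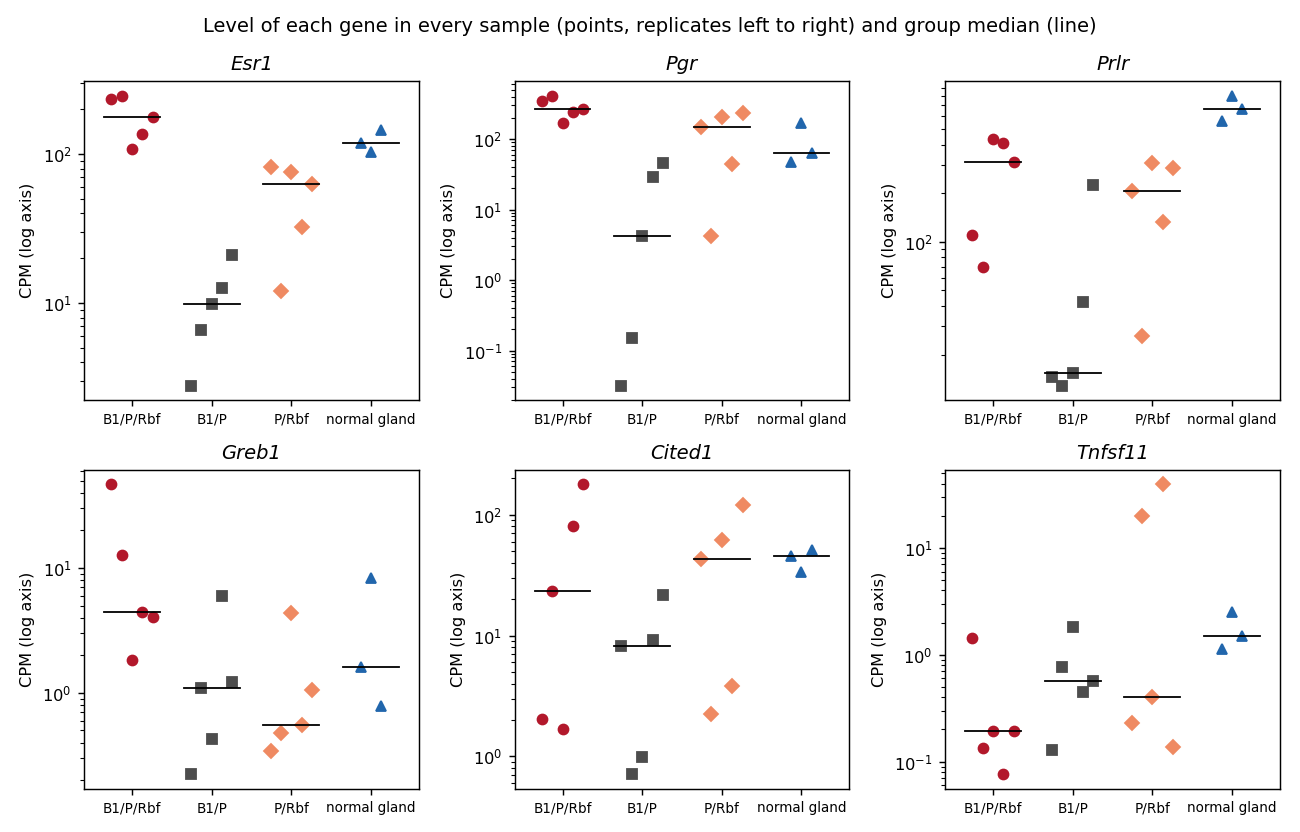
Level of each of the 6 genes in every sample, in CPM on log axes, with 1 point per mouse, replicates from left to right and a line at the group median. Esr1 and Pgr stood higher in every B1/P/Rbf tumor than in any B1/P tumor, Prlr was highest in the 3 glands, and Tnfsf11 was above 10 CPM only in P/Rbf tumors 2 and 4.

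Esr1 encodes estrogen receptor alpha, the nuclear receptor through which estrogen acts on hormone-sensing cells, and spans chr10:4611593-5005614 (GRCm38, plus strand). It measured 235, 247, 108, 137 and 177 CPM in B1/P/Rbf tumors 1 to 5, and 2.80, 6.63, 9.83, 12.6 and 20.9 CPM in B1/P tumors 1 to 5. In P/Rbf tumors 1 to 5 the levels were 82.2, 12.0, 75.6, 32.4 and 63.4 CPM, and in the glands they were 119, 103 and 144 CPM. The lowest B1/P/Rbf tumor thus stood above the highest P/Rbf tumor, and 4 of 5 P/Rbf tumors stood above the highest B1/P tumor. Esr1 was higher in B1/P/Rbf than B1/P tumors by 4.10 (SE 0.54, adjusted p = 0.000303) and higher in P/Rbf than B1/P tumors by 2.33 (SE 0.50, adjusted p = 0.00513). With a term for the sets of libraries the latter was 1.66 (adjusted p = 0.101) and no longer called. Against glands, B1/P tumors were lower (log2 fold change -3.53, SE 0.56, adjusted p = 0.000152), with no overlap. P/Rbf tumors, which also did not overlap with glands, missed the threshold (-1.20, SE 0.54, adjusted p = 0.0899), as did B1/P/Rbf tumors, which overlapped with them (0.56, SE 0.56, adjusted p = 0.457). The order of the mean levels was therefore B1/P/Rbf (181 ± 60.5 CPM), gland (122 ± 20.7), P/Rbf (53.1 ± 29.9) and B1/P (10.6 ± 6.85; SD, n = 5, or 3 for glands), in which only the last step passed the test between neighbours, and not with the set term. The step from B1/P/Rbf to P/Rbf, 1.77 (SE 0.49), had an adjusted p of 0.111.

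Pgr encodes the progesterone receptor, a target of estrogen receptor alpha, and spans chr9:8899833-8968611 (plus strand). Its levels were 351, 414, 168, 243 and 266 CPM in B1/P/Rbf tumors 1 to 5, and 150, 4.16, 205, 43.9 and 233 CPM in P/Rbf tumors 1 to 5. B1/P tumors 1 to 5 gave 0.0318, 0.148, 4.27, 28.6 and 46.0 CPM, of which the first 2 rest on 1 and 5 counts, and the glands 47.3, 167 and 63.6 CPM. The B1/P tumors were the least alike in Pgr, while the B1/P/Rbf tumors kept within a factor of 2.46. Pgr was higher in B1/P/Rbf than B1/P tumors by 4.19 (SE 1.27, adjusted p = 0.0321), with no overlap. That call was lost without B1/P/Rbf tumor 2 (4.03, adjusted p = 0.0567), without B1/P tumor 3 (3.95, adjusted p = 0.0692) and in a fit of these groups alone (4.23, adjusted p = 0.0586). P/Rbf against B1/P tumors gave 3.01 (SE 1.20, adjusted p = 0.0866), with overlap, and was called by DESeq2 (2.99, adjusted p = 0.0235) and by limma-voom (4.97, adjusted p = 0.0455). It was 1.77 (adjusted p = 0.41) with a term for the sets of libraries and 3.02 (adjusted p = 0.205) in a fit of these groups alone. The lowest B1/P/Rbf tumor stood just above the highest gland and the highest B1/P tumor just below the lowest gland, and neither difference was called (1.64, SE 1.38, adjusted p = 0.369, and -2.55, SE 1.27, adjusted p = 0.132). The first was called in a fit of these groups alone (1.63, adjusted p = 0.0181). The set term gave 6.27 for it (adjusted p = 0.0207), but no set holds both B1/P/Rbf tumors and glands. That value therefore carries over the Pgr gap between B1/P tumors of the 2 sets (means of 1.48 and 37.3 CPM). The second was called by limma-voom (-5.27, adjusted p = 0.023), while the set term gave -1.31 for it (adjusted p = 0.496). Mean levels ran from B1/P/Rbf (288 ± 95.7 CPM) through P/Rbf (127 ± 99.8) and gland (92.5 ± 64.7) to B1/P (15.8 ± 20.6), and no neighbours in this order differed past the threshold.

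Per kilobase of exon, which allows levels to be set beside each other between genes, the median B1/P/Rbf tumor had 31.1 CPM of Pgr and 12.9 CPM of Esr1. The same medians were 17.6 and 4.64 in P/Rbf tumors, 0.50 and 0.719 in B1/P tumors and 7.45 and 8.73 in glands. The ratio depends on the length used, since per kilobase of the longest transcript the medians of Pgr and Esr1 were 38.5 and 27.9 CPM in B1/P/Rbf tumors and 9.24 and 18.8 CPM in glands. The log2 ratio of Pgr to Esr1 (not per length) was 0.68 ± 0.11 in B1/P/Rbf tumors (SD, n = 5), the tightest of the 4 groups. It was 0.62 ± 1.32 in P/Rbf tumors, -1.77 ± 3.09 in B1/P tumors and -0.61 ± 1.13 in glands. Both B1/P tumors with the least Esr1 had the lowest ratios, -4.97 and -5.01, while B1/P tumors 4 and 5 reached 1.17 and 1.14. Of 30 exact two-sided permutation tests of the ratio of each other member to Esr1 between groups, none passed after adjustment, and the lowest adjusted p was 0.238.

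Among the 10 tumors with T121, Esr1 and Pgr levels were related once centred on genotype, pooled over both genotypes. Pearson's r of their log2 levels, centred on each genotype, was 0.955 (exact permutation p = 0.00181, adjusted over 5 relations p = 0.00903) and Spearman's rho was 0.952 (exact p = 0.00278, adjusted p = 0.0139). Without the tumors with the most extreme centred Esr1 levels, B1/P/Rbf tumor 3 and P/Rbf tumor 2, r was 0.863 (exact p = 0.0382, adjusted p = 0.191). The corresponding r with Esr1 was 0.44 for Prlr, 0.50 for Greb1, 0.55 for Cited1 and -0.65 for Tnfsf11, and none passed (adjusted p at least 0.157 by the exact test), although Greb1 gave 0.709 (adjusted exact p = 0.0486) without P/Rbf tumor 1. The value for Prlr turned to -0.20 without those tumors. No r was computed over the 5 B1/P tumors or the 3 glands, which are fewer than 6 each, but the B1/P tumors stood in the same order in Pgr as in Esr1.

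**Figure D2:**
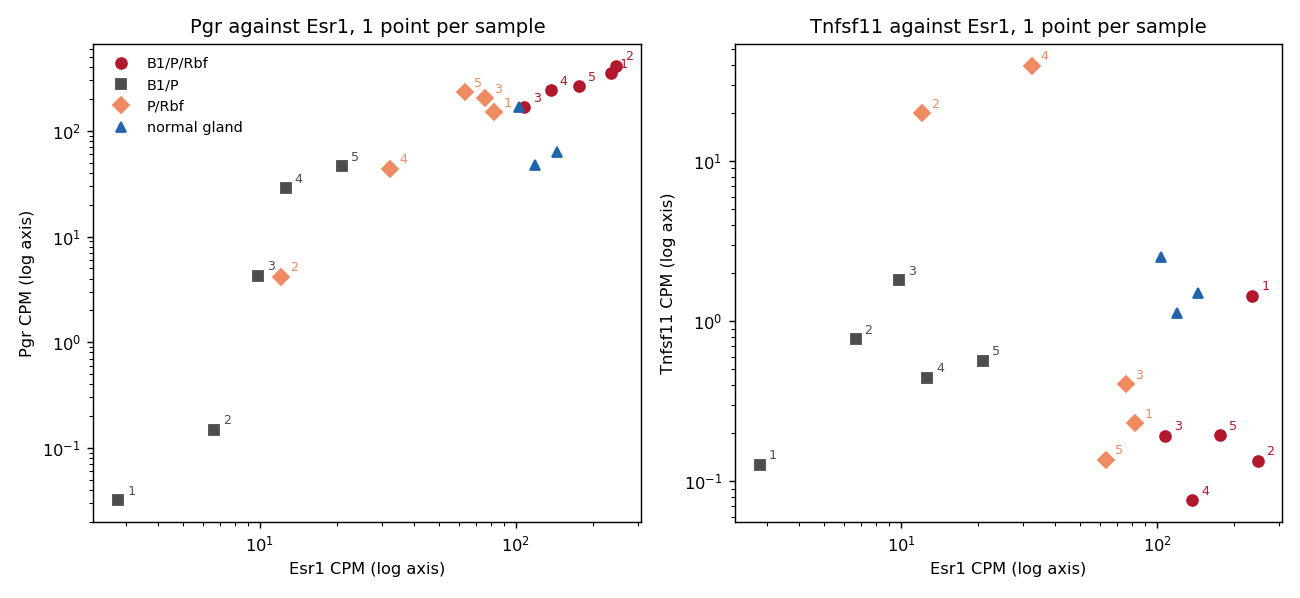
Pgr (left) and Tnfsf11 (right) against Esr1, in CPM on log axes, with 1 point per sample and the replicate number beside each tumor. Over the 10 T121 tumors, centred on genotype, r of Pgr with Esr1 was 0.955, or 0.863 without the 2 most extreme (adjusted exact p = 0.191), and P/Rbf tumors 2 and 4, with the least Esr1 of their group, had the highest Tnfsf11 levels, 19.9 and 39.4 CPM.

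Prlr, at chr15:10177238-10349180 (plus strand), encodes the prolactin receptor, a cytokine receptor needed for alveolar development. It measured 560, 805 and 660 CPM in the glands, and 110, 69.8, 432, 411 and 313 CPM in B1/P/Rbf tumors 1 to 5. P/Rbf tumors 1 to 5 had 205, 26.0, 308, 132 and 288 CPM, and B1/P tumors 1 to 5 had 14.5, 12.9, 15.3, 42.6 and 225 CPM. No tumor reached the lowest gland, and B1/P tumor 5 stood apart from the other 4 of its genotype. Prlr was lower in B1/P tumors than in glands by a log2 fold change of -3.44 (SE 0.91, adjusted p = 0.00774), while B1/P/Rbf and P/Rbf tumors gave -1.34 (SE 0.88, adjusted p = 0.246) and -1.82 (SE 0.88, adjusted p = 0.114). With a term for the sets of libraries, the first of these was -2.33 (adjusted p = 0.0761) and the second turned to 1.90 (adjusted p = 0.234). No set holds both B1/P/Rbf tumors and glands, so the latter value rests on the gap between B1/P tumors of the sets. The third gained a call with that term (-1.82, adjusted p = 0.0408), in a fit of these groups alone (-1.81, adjusted p = 0.0441) and without B1/P tumor 5 (-1.82, adjusted p = 0.0385). B1/P/Rbf against B1/P tumors gave 2.11 (SE 0.81, adjusted p = 0.0833). Without B1/P tumor 5, which also held the muscle RNA, this was 3.65 (adjusted p = 0.0037) and that between P/Rbf and B1/P tumors 3.17 (adjusted p = 0.0067) in place of 1.63 (SE 0.80, adjusted p = 0.156). The part of that RNA in the Prlr value was not tested. Mean levels were 675 ± 123 CPM in glands, 267 ± 169 in B1/P/Rbf, 192 ± 116 in P/Rbf and 62.0 ± 91.9 in B1/P tumors, and no neighbours in this order differed past the threshold. A gene model on the same strand whose span overlaps Prlr exon sequence, Gm21973, had 0 counts in all samples.

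Greb1, at chr12:16670615-16800886 (minus strand), encodes a cofactor of the estrogen receptor that is itself induced by estrogen in human breast cancer cells. Its levels were 46.9, 12.7, 1.85, 4.44 and 4.06 CPM in B1/P/Rbf tumors 1 to 5, and 0.223, 1.10, 0.427, 5.91 and 1.23 CPM in B1/P tumors 1 to 5. P/Rbf tumors 1 to 5 gave 0.345, 0.473, 4.38, 0.553 and 1.06 CPM, and glands 1.60, 8.25 and 0.779 CPM. The 2 highest values of all samples were B1/P/Rbf tumors 1 and 2, which also had the most Esr1, and every group overlapped with every other. Mean levels were 14.0 ± 18.8 CPM in B1/P/Rbf tumors, 3.54 ± 4.09 in glands, 1.78 ± 2.35 in B1/P and 1.36 ± 1.71 in P/Rbf tumors, and no pair of groups differed past the threshold. B1/P/Rbf tumors gave 2.97 (SE 1.09, adjusted p = 0.0701) against B1/P and 3.35 (SE 1.11, adjusted p = 0.152) against P/Rbf tumors. With 1 sample left out the first of these ran from 1.69 without B1/P/Rbf tumor 1 (adjusted p = 0.261) to 4.23 without B1/P tumor 4 (adjusted p = 0.0246). The second likewise ran from 2.08 to 4.52 and was never called. An antisense transcript on the other strand of the gene, Gm48140, had 1 count over all samples.

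Cited1, at chrX:102247381-102252181 (minus strand), encodes a transcriptional co-regulator found in hormone-sensing luminal cells. It measured 2.04, 23.3, 1.68, 80.2 and 179 CPM in B1/P/Rbf tumors 1 to 5, and 42.7, 2.24, 62.3, 3.84 and 120.9 CPM in P/Rbf tumors 1 to 5. B1/P tumors 1 to 5 had 8.23, 0.711, 0.980, 9.17 and 21.6 CPM, and the glands 45.6, 33.7 and 51.5 CPM. The glands were close together, while 3 B1/P/Rbf and 2 P/Rbf tumors lay below every gland and 2 of each genotype above them. B1/P/Rbf tumors spanned a factor of 106 in Cited1 against 2.29 in Esr1. Mean levels were 57.2 ± 75.1 CPM in B1/P/Rbf, 46.4 ± 48.9 in P/Rbf, 43.6 ± 9.04 in glands and 8.14 ± 8.49 in B1/P tumors. No B1/P tumor reached the lowest gland (-2.42, SE 1.33, adjusted p = 0.171), and no comparison of Cited1 passed the threshold by edgeR. Against B1/P tumors, B1/P/Rbf tumors gave 2.81 (SE 1.25, adjusted p = 0.133) and P/Rbf tumors 2.51 (SE 1.23, adjusted p = 0.158). DESeq2 called the former (2.82, adjusted p = 0.0383). Per kilobase of exon, Cited1 was the highest of the 6 genes in the median B1/P tumor, 4.69 CPM against 0.996 for Prlr, and also in the median P/Rbf tumor, 24.4 CPM against 17.6 for Pgr.

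Tnfsf11, at chr14:78277445-78308043 (minus strand), encodes RANKL, the ligand that progesterone induces in receptor-positive cells. P/Rbf tumors 1 to 5 measured 0.230, 19.9, 0.405, 39.4 and 0.136 CPM, and the glands 1.13, 2.52 and 1.49 CPM. B1/P tumors 1 to 5 had 0.127, 0.770, 1.81, 0.444 and 0.567 CPM, and B1/P/Rbf tumors 1 to 5 had 1.45, 0.135, 0.193, 0.0761 and 0.195 CPM, where the last 4 rest on 3 to 7 counts each. P/Rbf tumors 2 and 4 thus stood above all other samples, and the other 3 of that genotype lay below every gland. These 2 tumors were also the lowest of their genotype in Esr1, Pgr, Prlr and Cited1. Tnfsf11 was higher in P/Rbf than B1/P tumors by 4.00 (SE 1.35, adjusted p = 0.0466), although the groups overlapped in range. Leaving out 1 of the 18 samples lost this call in 13 cases, and over all 18 the values were 2.79 to 4.64 with adjusted p of 0.0280 to 0.133, the largest without P/Rbf tumor 4, and limma-voom gave 1.93 (adjusted p = 0.341). The difference of B1/P/Rbf from P/Rbf tumors was -4.87 (SE 1.41, adjusted p = 0.119), and that from B1/P tumors -0.86 (SE 1.24, adjusted p = 0.674). The latter ran from -2.30 without B1/P/Rbf tumor 1 to -0.23 without B1/P tumor 3 and was not called in either. Mean levels ran from P/Rbf (12.0 ± 17.5 CPM) through gland (1.71 ± 0.720) and B1/P (0.744 ± 0.640) to B1/P/Rbf (0.409 ± 0.582), and no neighbours in this order differed past the threshold. The B1/P/Rbf tumors had the most Pgr and the least Tnfsf11, with a log2 ratio of Tnfsf11 to Esr1 of -9.15 ± 1.20 against -3.82 ± 1.11 in B1/P tumors. That difference, -5.34, gave an exact two-sided permutation p of 0.0079, the smallest possible with 5 against 5, and an adjusted p of 0.238 over 30 tests.

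**Figure D3:**
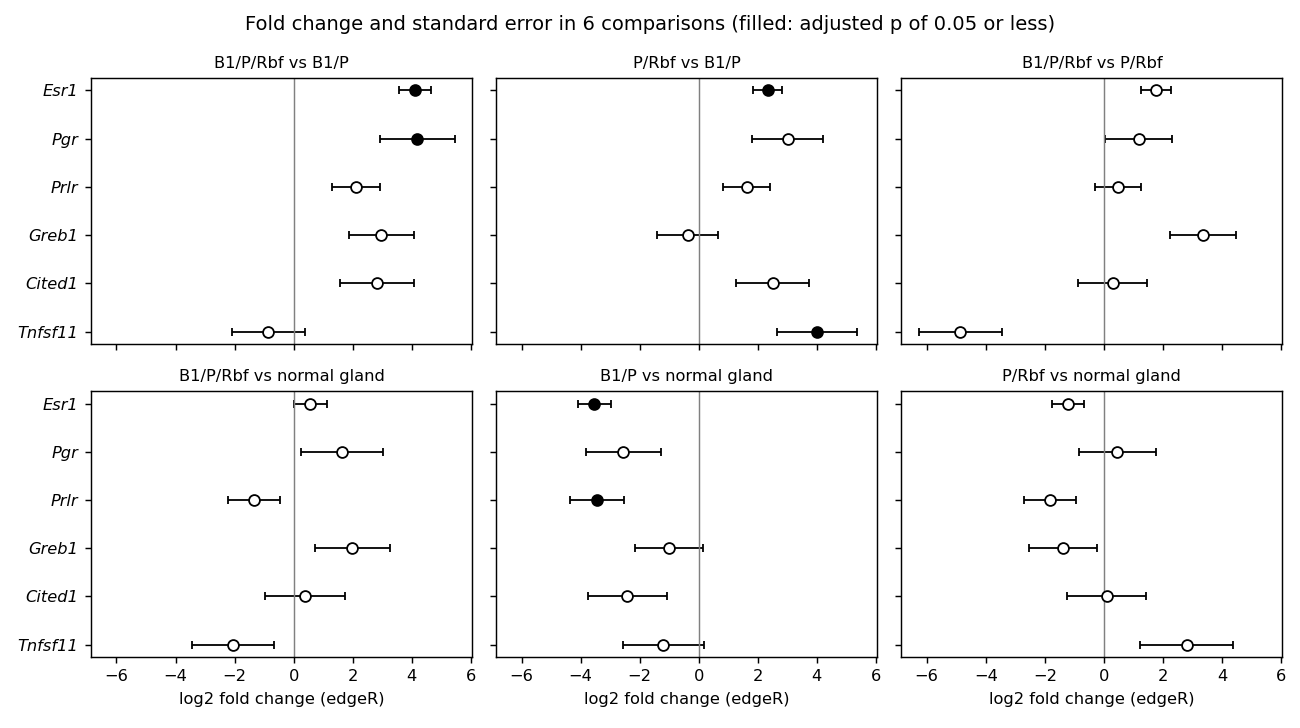
Log2 fold change and SE of the 6 genes in the 6 comparisons, with filled points for an adjusted p of 0.05 or less by edgeR's quasi-likelihood test. Esr1 and Pgr were called between B1/P/Rbf and B1/P, Esr1 and Tnfsf11 between P/Rbf and B1/P, and Esr1 and Prlr between B1/P and gland.

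Counted together, 2 of the 6 genes (Esr1 and Pgr) were called higher in B1/P/Rbf than B1/P tumors and 0 lower, where 7.36% of all genes tested were called higher and 9.29% lower. The same 2 genes did not overlap between these groups, against 5% of all genes on the higher side. The median log2 fold change of the 6 genes was 2.89, beside -0.06 over all genes, and 5 of 6 had an unadjusted p under 0.05. Shares of all genes at an unadjusted p under 0.05 are not given here for any comparison. Counts by that rule, here and below, therefore have no background. DESeq2 called 5 of the 6 genes and limma-voom 4. Over all 19186 genes neither called more than 4415, the largest count of any alternative tool or setting. That is an upper limit, and the share called by each of these tools is not given here. Without B1/P/Rbf tumor 3, in which Brca1 RNA was only partly lost, edgeR called the same 2 genes, Esr1 (4.24, adjusted p = 0.000635) and Pgr (4.33, adjusted p = 0.0426). Between P/Rbf and B1/P tumors 2 genes (Esr1 and Tnfsf11) were called higher and 0 lower, where 8.43% of all genes were called higher and 10.8% lower. The median was 2.42, beside -0.05 over all genes, and none of the 6 genes was free of overlap, against 8.86% of all genes that were. Both comparisons share the B1/P tumors. In B1/P/Rbf against P/Rbf tumors edgeR called 0 of 6, where it called 0.281% of all genes, with 3 at an unadjusted p under 0.05. DESeq2 called 3 (Esr1, Greb1 and Tnfsf11), where it called 1026 of the 19186 genes, and limma-voom 0, where it called 26. Only Esr1 did not overlap there, against 1.71% of all genes on that side, and the median was 0.83 beside -0.01.

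Against glands, B1/P tumors had 2 of 6 genes called lower (Esr1 and Prlr) and 0 higher, where 16.9% of all genes were called lower and 16.8% higher. In 4 of 6 (Esr1, Pgr, Prlr and Cited1) every B1/P tumor lay below every gland, as in 22.7% of all genes, and the median of the 6 was -2.49 beside 0.12 over all genes. B1/P/Rbf tumors had 0 of 6 called by edgeR, where 37% of all genes were called, 0 at an unadjusted p under 0.05, and 0 called by DESeq2 or limma-voom. There Pgr lay above and Prlr below the range of the glands, as did 23.1% and 27.4% of all genes. P/Rbf tumors had 0 of 6 called by edgeR, where 37.7% of all genes were called, 1 at an unadjusted p under 0.05 and, by limma-voom, Esr1 alone, with 0 by DESeq2. Esr1 and Prlr lay below the range of the glands, as did 26.5% of all genes. The medians were 0.48 and -0.56, each beside 0.05 over all genes.

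Within the first set of libraries, the mean levels of the B1/P/Rbf genotype and of B1/P tumors 1 to 3 were 181 and 6.42 CPM for Esr1, 288 and 1.48 CPM for Pgr, 267 and 14.2 CPM for Prlr and 14.0 and 0.582 CPM for Greb1, and in these 4 genes the groups did not overlap. The share of all genes without overlap in this split is not given here, so that count has no background. The corresponding log2 ratios of the means were 4.81, 7.60, 4.23 and 4.59. With a term for the sets edgeR called all 4 genes. Over all 19186 genes no alternative tool or setting called more than 4415 between these genotypes. That is an upper limit, and the share called with the set term is not given here. Cited1 (57.2 and 3.31 CPM) and Tnfsf11 (0.409 and 0.902 CPM) overlapped. In the second set, B1/P tumors 4 and 5 overlapped with the P/Rbf tumors in all 6 genes. There the means were 53.1 and 16.8 CPM for Esr1, 127 and 37.3 CPM for Pgr, 12.0 and 0.506 CPM for Tnfsf11, 46.4 and 15.4 CPM for Cited1, 192 and 134 CPM for Prlr and 1.36 and 3.57 CPM for Greb1, which alone was lower in P/Rbf. With the set term Esr1 gave 1.66 (adjusted p = 0.101) and Tnfsf11 4.56 (adjusted p = 0.186), so neither call between P/Rbf and B1/P tumors held, and the comparison then rests on 2 B1/P tumors. Both B1/P tumors of the second set stood above all 3 of the first in Esr1, Pgr, Prlr, Greb1 and Cited1, and not in Tnfsf11. The share of all genes that separate these B1/P tumors in this way is not given here either, so this count has no background.

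Since epithelial markers also differed between the tumors, each gene was set against them. Of the 6 epithelial markers, 3 were called higher in B1/P/Rbf than B1/P tumors (Cdh1, Krt18 and Cldn4, median of the 6 log2 fold changes 1.45) and 5 in P/Rbf than B1/P tumors (median 1.49). Relative to the mean log2 level of these 6 markers, Esr1 was at -1.78 ± 0.74 in B1/P/Rbf, -4.29 ± 1.63 in B1/P, -4.10 ± 1.07 in P/Rbf tumors and -0.65 ± 0.40 in glands. P/Rbf and B1/P tumors then differed by 0.19 (exact two-sided permutation p = 0.865), or by 1.08 relative to Epcam alone (adjusted exact p = 0.349), while B1/P/Rbf tumors lay above B1/P tumors by 2.51 (exact p = 0.0159) and above P/Rbf tumors by 2.32 without overlap (exact p = 0.0079, the smallest possible). Pgr lay 4.96 higher in B1/P/Rbf than B1/P tumors on this scale (exact p = 0.0159) and 2.58 higher in P/Rbf than B1/P tumors (exact p = 0.254). Prlr was below the glands in every tumor of each genotype, by -3.29 in B1/P/Rbf, -4.28 in B1/P and -4.18 in P/Rbf tumors (exact p = 0.0179 each, the smallest possible with 5 against 3). Greb1 lay 3.33 higher in B1/P/Rbf than P/Rbf tumors (exact p = 0.0159), and Tnfsf11 lay lower in B1/P/Rbf than B1/P tumors (-2.83, exact p = 0.0159) and than in glands (-4.11, exact p = 0.0179). After adjustment over the 36 tests, none of these passed, and the lowest adjusted p was 0.0643.

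**Figure D4:**
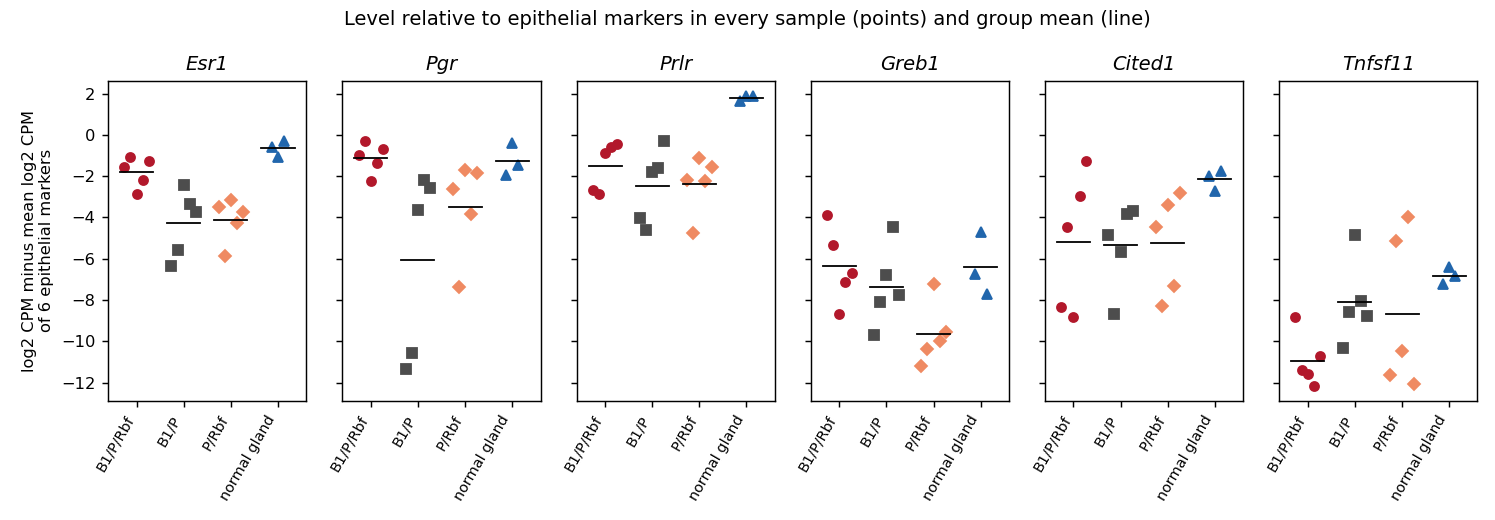
Level of each gene relative to 6 epithelial markers (log2 CPM minus the mean log2 CPM of Epcam, Cdh1, Krt8, Krt18, Cldn4 and Cldn7) in every sample, with a line at the group mean. On this scale the mean of Esr1 was -4.29 in B1/P, -4.10 in P/Rbf and -1.78 in B1/P/Rbf tumors, and Prlr was highest in the glands (1.81).

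Of 11 genes that work with the estrogen receptor as cofactors, all tested, 2 were called higher in B1/P/Rbf than B1/P tumors (Foxa1 and Gata3), 1 was lower (Tfap2c) and 8 were not called, with a median of -0.33. The shares of all genes called higher and called lower were 7.36% and 9.29% in this comparison, and 8.43% and 10.8% in P/Rbf against B1/P tumors, and the list counts here and in the following paragraphs stand beside these shares. Foxa1, a forkhead factor that opens chromatin for the receptor, had group medians of 416 CPM in B1/P/Rbf, 401 in P/Rbf, 126 in gland and 44.0 in B1/P samples, and rose by 2.89 (SE 0.61) in both T121 genotypes against B1/P (adjusted p = 0.00445 and 0.00441). Gata3, a luminal fate factor, had medians of 245, 138, 116 and 28.2 CPM in the same order and rose by 3.49 (adjusted p = 0.0012) and 2.42 (adjusted p = 0.00718). Tfap2c, an AP-2 factor, moved the other way, with a median of 232 CPM in B1/P tumors against 3.91 in B1/P/Rbf, 1.97 in P/Rbf and 12.4 in gland samples, with fold changes of -5.97 and -6.03 against B1/P (adjusted p = 0.000363 and 0.000327). In P/Rbf against B1/P tumors 2 cofactors were called higher and 2 lower, the fourth being Ncoa2, a steroid receptor coactivator (-1.16, adjusted p = 0.037), and the median was -0.24. Ncoa2 had 72.5 to 396 CPM in B1/P tumors (median 92.3) and 62.0 to 77.7 CPM in P/Rbf tumors (median 63.7), with overlap. Beside these and the following differences from B1/P tumors, 6 markers of basal and myoepithelial cells (Krt5, Krt14, Trp63, Acta2, Myh11 and Oxtr) summed to 332 to 1853 CPM in B1/P, 35.4 to 275 CPM in B1/P/Rbf and 64.9 to 1203 CPM in P/Rbf tumors, and to 280 to 409 CPM in glands. Of the 6, Trp63 and Oxtr were called lower in both T121 genotypes than B1/P tumors and none higher, with medians of -2.96 and -1.87. Their part in the gene differences was not tested.

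Among 14 genes that respond to estrogen, 11 were tested, since Tff1 and Tff3 did not pass the filter and Ca12 was not matched by that symbol. In B1/P/Rbf against B1/P tumors 1 was called higher, Stc2, a secreted glycoprotein (3.14, SE 0.69, adjusted p = 0.00599), and 1 lower, Ccnd1, the cyclin that partners Cdk4 and Cdk6 (-4.01, SE 0.71, adjusted p = 0.00172), with a median of 0.06, so each count was near the share over all genes. Stc2 had group medians of 244 CPM in B1/P/Rbf, 186 in P/Rbf, 157 in gland and 23.6 in B1/P samples, an order that differs from that of Esr1. Ccnd1 was at 434 CPM in the median B1/P tumor against 30.4 in B1/P/Rbf and 58.7 in P/Rbf tumors. Areg, the EGF-family growth factor induced by estrogen in ducts, was not called (1.77, SE 0.99, adjusted p = 0.239), with 1.83 to 105 CPM in B1/P and 37.5 to 273 CPM in B1/P/Rbf tumors. P/Rbf against B1/P tumors had 2 called higher (Stc2 and Xbp1, a secretory-pathway factor) and 1 lower (Ccnd1), with a median of 0.30. Xbp1 had 120 to 1765 CPM in P/Rbf tumors (median 319) and 114 to 239 CPM in B1/P tumors (median 164), with overlap.

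Of 8 genes of progesterone and RANKL signaling, 1 was called higher in B1/P/Rbf than B1/P tumors (Calca) and 3 lower (Id4, Adamts18 and Tnfrsf11b), with a median of -1.23. P/Rbf against B1/P tumors had the same genes with Wnt4 besides, 2 higher and 3 lower, with a median of -0.42. Tnfrsf11b, which encodes osteoprotegerin, the soluble decoy that binds RANKL, was at 22.9 CPM in the median B1/P tumor against 1.68 in B1/P/Rbf, 1.34 in P/Rbf and 1.42 in gland samples. Against B1/P it was lower by fold changes of -3.48 (SE 0.53, adjusted p = 0.00066) and -3.51 (SE 0.53, adjusted p = 0.000664), and it was higher in B1/P tumors than in glands by 3.95 (adjusted p = 0.000272). Tnfrsf11a, the RANKL receptor, was not called in either (0.89 and 0.92, adjusted p = 0.307 and 0.266). Wnt4, the other progesterone-induced signal, rose in P/Rbf against B1/P tumors by 2.91 (SE 0.79, adjusted p = 0.0175) and gave 1.04 (adjusted p = 0.36) in B1/P/Rbf tumors. Calca was at or under 9.10 CPM in every sample.

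Prolactin signaling had 8 of 9 listed genes tested, and Prl itself, the hormone, did not pass the filter. Stat5a and Stat5b, the transcription factors downstream of the receptor, were called higher in B1/P/Rbf than B1/P tumors (3.05, adjusted p = 0.00398, and 1.47, adjusted p = 0.00468) and 0 genes lower, with a median of 1.00. Stat5a and Cish, a feedback inhibitor, were called higher in P/Rbf than B1/P tumors (1.95, adjusted p = 0.0317, and 1.93, adjusted p = 0.0206), with a median of 0.71. Against glands, B1/P tumors had 4 called lower, Stat5a, Stat5b, Cish and Ghr, B1/P/Rbf tumors 1 (Ghr) and P/Rbf tumors 2 (Stat5b and Ghr). The shares of all genes called lower there were 16.9%, 20% and 20.3% in the same order. Ghr, the growth hormone receptor, which adipose tissue also expresses, had 555 to 867 CPM in the glands and at most 129 CPM in tumors, beside the adipocyte RNA of the glands. Elf5, the alveolar factor that prolactin induces, was not called in either tumor comparison (-3.12 and -2.35, adjusted p = 0.124 and 0.211).

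**Figure D5:**
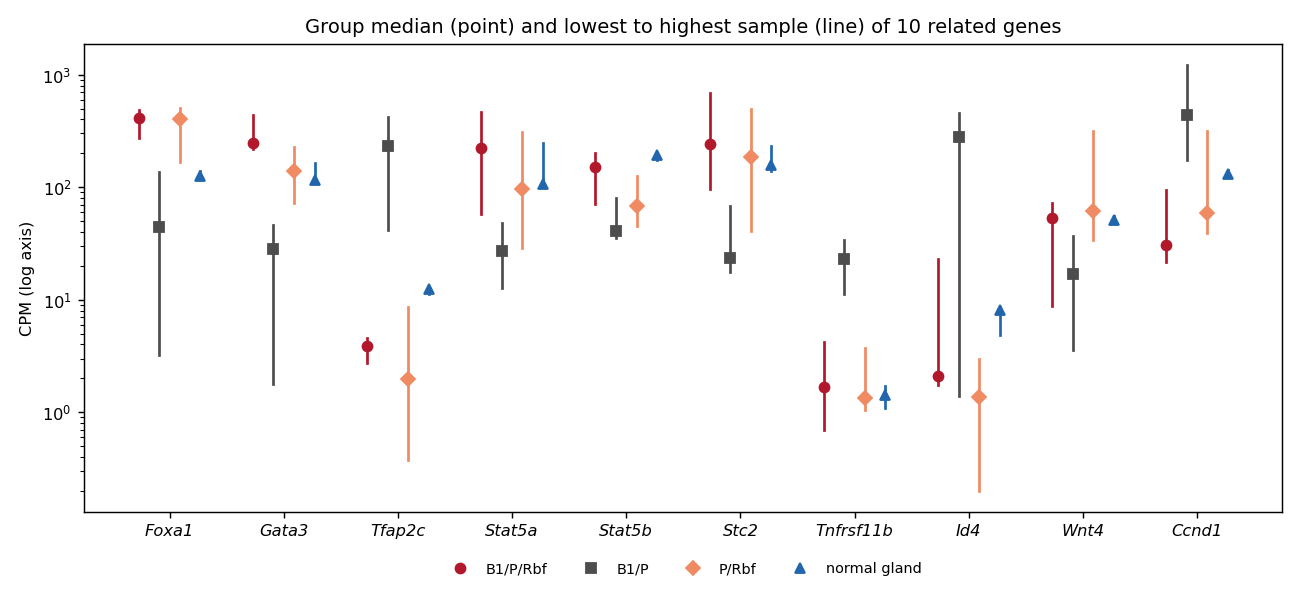
Levels of 10 related genes in CPM on a log axis, with the group median as a point and a line from the lowest to the highest sample. Foxa1, Gata3, Stat5a and Stc2 had lower medians in B1/P tumors than in the other groups, and Tfap2c, Id4, Tnfrsf11b and Ccnd1 higher ones.

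Other markers of hormone-sensing luminal cells (6 genes, which share Foxa1, Areg and Wnt4 with the lists above) had 3 called higher in B1/P/Rbf than B1/P tumors (Prom1, Foxa1 and Ly6a) and 5 in P/Rbf than B1/P tumors (also Tbx3 and Wnt4), none lower in either, with medians of 2.33 and 2.90. Prom1, a surface protein of these cells, rose by 4.78 (SE 1.05, adjusted p = 0.006) and 2.99 (SE 0.97, adjusted p = 0.04), and Ly6a, which encodes Sca-1, by 2.97 (adjusted p = 0.0229) and 3.05 (adjusted p = 0.0188). Of 16 other hormone nuclear receptors tested, 1 was called higher in B1/P/Rbf than B1/P tumors (Nr3c2, the mineralocorticoid receptor) and 4 lower (Rarg, Rxrg, Thrb and Nr3c1), with a median of -0.36. In P/Rbf against B1/P tumors Nr3c2 was higher and Rxrg lower, with a median of -0.14. Rxrg was at most 0.788 CPM in any tumor and passed the filter through the glands (27.7 to 33.5 CPM). Both of its calls between tumors therefore rest on few counts. Esr2, the other estrogen receptor, did not pass the filter. Of 7 genes of sex steroid metabolism tested, only Akr1c18, which degrades progesterone, was called in B1/P/Rbf against B1/P tumors (lower, -5.56, adjusted p = 0.0076, median of the list -0.16), and P/Rbf against B1/P tumors had 0 by edgeR, with 3 at an unadjusted p under 0.05 and 1 called by DESeq2 and by limma-voom (median 0.01). Over all these lists, 63 genes were tested. In B1/P/Rbf against P/Rbf tumors edgeR called 0 of them, where it called 0.281% of all genes. Of the 63, 14 had an unadjusted p under 0.05, a count for which no share over all genes is given. DESeq2 called 5 of the 63, where it called 1026 of the 19186 genes, and limma-voom 0, where it called 26.

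Against glands, the shares of all genes called higher and called lower were 16.8% and 16.9% in B1/P, 17.1% and 20% in B1/P/Rbf and 17.4% and 20.3% in P/Rbf tumors. Of the 16 nuclear receptors tested, 7 were called lower in each tumor genotype, and 2, 1 and 2 higher in B1/P, B1/P/Rbf and P/Rbf tumors, with medians of -1.25, -1.11 and -0.96. Rxrg and Pparg, which adipocytes express, were among the 7 in each case, and adipocyte markers were lower there in 5 of 5. Rxrg is also expressed by skeletal muscle, whose markers were lower in 3 of 3. Lymphocyte markers (4 genes, 178 to 250 CPM in glands and at most 8.34 CPM in any tumor) were likewise called lower in 4 of 4 in each genotype, and endothelial markers in 2 of 3 in B1/P and B1/P/Rbf and 3 of 3 in P/Rbf tumors. Of 3 macrophage markers, 3 were called higher in B1/P, 2 in B1/P/Rbf and 1 in P/Rbf tumors than in glands. Of the 6 epithelial markers, 2, 4 and 4 were called higher in the same order. The part of these other cell types' RNA in these counts and in the gland levels of the 6 genes, Tnfsf11 among them, which lymphocytes also express, was not tested. In the same order, the 11 cofactors had 4, 2 and 2 called higher and 1, 0 and 0 lower, with Gata3 the one lower in B1/P tumors (-2.36, adjusted p = 0.00613). Estrogen-responsive genes had 2, 2 and 1 higher and 2 lower in each, and sex steroid metabolism 2, 2 and 3 higher and 1, 2 and 2 lower. Progesterone and RANKL signaling had 2 higher (Id4 and Tnfrsf11b) and 1 lower (Calca) in B1/P tumors. In B1/P/Rbf and P/Rbf tumors edgeR called 0 of that list, with 2 and 3 at an unadjusted p under 0.05, 1 and 3 called by DESeq2 and 0 by limma-voom.

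Genes of similar pattern were found by the root mean square difference of log2 CPM centred over the 18 samples, among 12590 genes that averaged 5 CPM or more. The nearest to Esr1 were the lincRNA 5930412G12Rik (0.70), Dnajc12 (0.77) and Kif5c (0.89). For Pgr the nearest was Gm16485 (0.68), which lies on the same strand 3180 bases past the end of Pgr at chr9:8971791-8975773, followed by Msx2 (1.34) and Slc35f3 (1.51). Gm16485 averaged 134 CPM in B1/P/Rbf, 2.58 in B1/P, 38.7 in P/Rbf and 66.5 in gland samples, and reads that run past the end of Pgr were not told apart from its own. The nearest to Prlr were Rbm20 (0.95), Slc12a2 (1.11) and Cd164 (1.14), and to Greb1 Cd200 (1.21), Stat5a (1.31) and Tmed3 (1.33). Cited1 had no neighbour nearer than Tmem158 (1.75), with Prlr (1.78) and Stc2 (1.79) next. Tnfsf11 was nearest to Pde10a (1.05), Il15 (1.13) and Pde8a (1.19), whose mean levels were likewise highest in P/Rbf tumors, at 46.7, 40.6 and 34.0 CPM. These distances describe 18 samples that share their genotype groups and carry no test.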

How the data were processed

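The authors prepared stranded RNA-seq libraries and, after trimming, obtained gene-level counts from RSEM. The submitters' processing notes list RSEM 1.3.0, cutadapt 1.18, FastQC 0.11.5, Picard 1.119 and DESeq2 1.28.1. The deposited values are expected counts, neither normalized nor filtered, and 5.61% of them are not whole, because a read matching several genes is shared out among them. A human reference is named in the methods, but all 55450 identifiers matched GENCODE M21 (GRCm38), from which positions were taken. Whether the counting used the strand is not given in the sources used here.

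Counts were rounded and fitted in R 4.3.3 with edgeR 4.0.16 (filterByExpr with a minimum count of 10, TMM, glmQLFit, glmQLFTest, the group as the only term). Log2 CPM used a prior count of 2. For ratios and relations, exact permutation tests (two-sided) were run (Python 3.11.15), those of relations within genotype. Motifs and CG pairs were searched in RefSeq windows of 300 bases. Groups came from the labels, and replicate numbers only name mice.

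Alternatives were DESeq2 1.42.0, limma-voom with quantile normalization (limma 3.58.1), no TMM, no filter, the study's filter (6 or more samples with a log2 CPM no lower than 6), a fit of the 2 groups compared, a term for the library sets, and each sample left out. The rule for named genes was the 6 members, the genes of 7 lists of related genes, the 6 epithelial markers, adipocyte and skeletal muscle markers, and the 3 genes nearest to each member in pattern. Besides these, the 6 basal and myoepithelial markers and gene models that overlap a member are named. The members and lists were chosen with earlier results of these data known. Protein sequences were not analysed here, and 1 gene of the lists is not reported here by name.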

Additional observations from a re-analysis of the deposited data

Results flagged for a closer look

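Tnfsf11 in B1/P/Rbf tumor 1 stood far from the other 4 tumors of its genotype. Its level was 1.45 CPM (51 counts) against 0.0761 to 0.195 CPM (3 to 7 counts), and on the log2 scale the gap to the nearest tumor was 0.739 of the group's whole range, where Dixon's critical value for 5 samples is 0.71. The same tumor had the most Greb1 of all samples, 46.9 CPM. Of the 18 groups of 5 tumors examined for the 6 genes, this was the only one, and chance alone gives about 1 in 20.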

How the results depend on the processing

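Of 881 member fold changes under an alternative, 820 kept their direction and side of the threshold, 23 lost a call, 23 gained one and 15 reversed, none of these with a call. The 2 calls between B1/P/Rbf and B1/P became 5 with DESeq2, 4 with limma-voom, 4 with the library-set term, 1 in a fit of only these groups and 1 to 3 when a sample was left out (1 without B1/P/Rbf tumor 2 or B1/P tumor 3). The 2 between P/Rbf and B1/P became 3 with DESeq2 (Pgr besides), stayed 2 in number with limma-voom (Esr1 and Pgr), and became 1 without TMM, without a filter, with the study's filter (which keeps Esr1, Pgr and Prlr only) and in a fit of only these groups, 0 with the library-set term and 1 to 2 when a sample was left out. The 0 between B1/P/Rbf and P/Rbf became 3 with DESeq2. Against glands, B1/P/Rbf went from 0 to 1 (Pgr) in a fit of only these groups and with the library-set term, B1/P from 2 to 1 with the library-set term and 3 (Pgr besides) with limma-voom, and P/Rbf from 0 to 1 with limma-voom and the study's filter (Esr1), only these groups and the library-set term (Prlr), and 0 to 1 when a sample was left out (Prlr, without B1/P tumor 5). Reversed values were, with limma-voom, Greb1 0.34 in P/Rbf against B1/P, Cited1 -0.36 in B1/P/Rbf against P/Rbf and -1.44 and -1.09 in B1/P/Rbf and P/Rbf against gland, and Pgr -0.30 in P/Rbf against gland. With the library-set term they were Prlr 1.90 in B1/P/Rbf and Greb1 0.011 in B1/P against gland. No set holds both B1/P/Rbf tumors and glands, so with this term that comparison rests on the B1/P tumors. With a sample left out, Greb1 ranged from -1.55 to 0.87 in P/Rbf against B1/P, -2.25 to 0.62 in B1/P against gland and -2.54 to 0.29 in P/Rbf against gland, and Cited1 from -0.79 to 1.04 in B1/P/Rbf against P/Rbf, -0.70 to 0.71 in B1/P/Rbf against gland and -0.65 to 0.40 in P/Rbf against gland. Likewise the log2 ratio of Pgr to Esr1 between B1/P/Rbf and P/Rbf ranged from -0.48 to 0.37, that of Esr1 to epithelial markers between P/Rbf and B1/P from -0.33 to 0.65, and r of Esr1 with Prlr from -0.38 to 0.64 (-0.20 without the most extreme tumors). The cause of these changes was not tested. The tests of ratios passed in 0 cases in all alternatives run.

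Over all genes, calls between B1/P/Rbf and B1/P fell from 3195 to 886 with the study's filter and 2039 with only these groups, and between P/Rbf and B1/P from 3684 to 867, 1507 and, with the library-set term, 2008. Between B1/P/Rbf and P/Rbf the 54 calls became 1026 with DESeq2, 26 with limma-voom, 3 with the study's filter, 1 with only these groups, 5 with the library-set term and 9 to 131 with a sample left out. Against glands, 6481, 7108 and 7230 calls for B1/P, B1/P/Rbf and P/Rbf became 1601, 1763 and 1668 with the study's filter, which tests 4549 genes. The library-set term gave 3879 for B1/P/Rbf, and B1/P had 4320 without gland 3. Leaving out TMM raised the median of all genes against glands by 0.35 for B1/P, 0.37 for B1/P/Rbf and 0.27 for P/Rbf, and limma-voom by 0.15 for B1/P/Rbf and P/Rbf and 0.10 in P/Rbf against B1/P. Levels under 1 CPM rest on few counts: Tnfsf11 had 3 to 8 counts in 7 tumors. No paired analysis was possible because the replicate numbers only name mice and the labels pair no samples.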
